A study of Mus musculus with 9 samples.

Results

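Sphingosine 1-phosphate is a lipid signal that sphingosine kinases make inside cells, transporters release, a lyase and phosphatases break down, and cell surface receptors read. The 9 genes described here are the kinases Sphk1 and Sphk2, the lyase Sgpl1, the phosphatase Sgpp1, the exporters Spns2 and Mfsd2b, and the receptors S1pr1, S1pr2 and S1pr4. They were taken by symbol from a named list, whatever their levels, and are 9 of the 52550 genes in the count table. All 9 passed the filter on low counts and were tested among 32582 genes.

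RNA was sequenced from mouse haematopoietic stem cells, sorted from bone marrow as CD150-positive and CD48-negative cells within the lineage-negative, Sca1- and c-Kit-positive fraction, with 1000 cells in each of 9 libraries. The groups were young wild type (WT) at 2 months, old WT at 22 to 24 months and old Sphk2 knockout (KO), 3 libraries each. The KO is labelled B6N.129S6-Sphk2tm1Rlp/J and also "Sphk2 cKO", with no Cre driver, deleted exon or number of mice stated, and its age comes from the protocol text for old animals. The labels describe the 3 libraries of a group as technical replicates, so each SD and p-value measures the spread between libraries, which need not be a spread between mice. In sorted bulk samples, fewer cells that express a gene and less RNA of it per cell cannot be told apart.

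In blood and lymph the lipid is abundant, while the lyase keeps it low inside tissues, and lymphocytes carrying S1PR1 follow that gradient out of lymphoid organs. Blood-forming stem and progenitor cells also express receptors of this family and circulate in small numbers. Spns2 on endothelium and Mfsd2b on red cells and platelets are the known exporters that supply lymph and plasma.

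The libraries differed widely in the share of reads that fell in genes. Counts in genes ranged from 28088637 to 74021822 in young WT, from 3145167 to 5115003 in old WT and from 11284847 to 17544945 in old KO. Of all counts, 6.51% to 12.5%, 80.8% to 87.7% and 45.0% to 61.9% lay outside annotated genes in the same order. A background was therefore read from 1134 olfactory receptor genes, normally silent in blood cells: 1.09 to 1.43, 5.41 to 10.4 and 5.55 to 7.29 reads per kb of exon. A gene was counted as above background in a library when its count was 20 or more and also 5 or more times what this density gives over its exons. By that measure 7379 to 8122 protein-coding genes were above background in young WT, 640 to 1129 in old WT and 2877 to 4171 in old KO. Of 8 markers of the stem cell gate, those above background in 2 or more libraries of a group numbered 6 for young WT, 0 for old WT and 6 for old KO, so the labelled cell type was only partly checked in old WT, where Procr reached 446 CPM in library 1 and Hlf 1372 and Slamf1 306 CPM in library 3, each above background, and library 2 had no gate marker above background. The part of these depth and background differences in the results that follow was not tested.

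Above background stood 6, 8 and 6 of the 9 genes in young WT libraries 1, 2 and 3, against 1, 0 and 2 for old WT, then 3, 2 and 4 for old KO. Sphk2, Sgpp1, S1pr1, S1pr4, Spns2 and Mfsd2b were above it in all 3 young WT libraries. In old WT, Spns2 was above it in 2 libraries and S1pr4 in 1. In old KO, Spns2 was above it in all 3 libraries, S1pr1 and S1pr4 in 2, and Sgpl1 and Mfsd2b in 1. Levels below are in CPM, the usual scaling of counts by library size, here the sum of counts over all genes. Because background is part of every count, a CPM from a library where the gene is not above background describes the library as much as the gene.

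**Figure D1:**
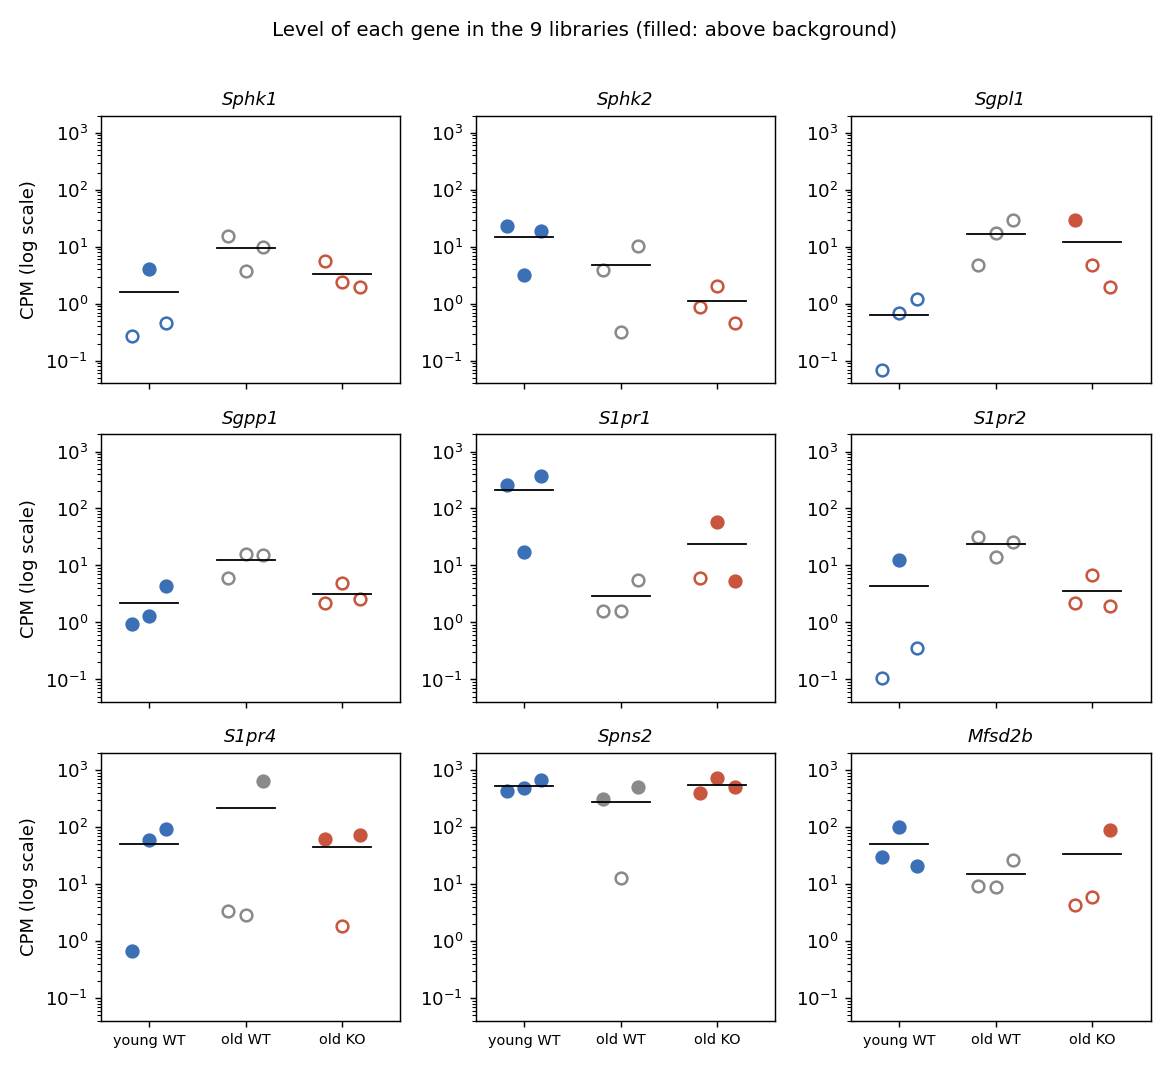
CPM (log axis) of each of the 9 genes in the 9 libraries, 3 per group. Filled points are above background, open points are not, and the black line is the mean of the 3 libraries. Spns2 is filled in 8 libraries, whereas S1pr1 is filled in all young WT libraries and open in all old WT libraries.

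Per kb of exon, which allows genes to be compared, Spns2 had the highest mean level in young WT at 131 CPM per kb. S1pr1 followed at 70.6, S1pr4 at 21.5, Mfsd2b at 9.77 and Sphk2 at 3.56 CPM per kb. S1pr2, Sgpp1, Sphk1 and Sgpl1 had 0.539, 0.389, 0.331 and 0.105 CPM per kb. The ranges of each neighbouring pair in this order overlapped, so the order holds for means only. In old KO, Spns2 (134 CPM per kb) did not overlap with the next gene, S1pr4 (19.0 CPM per kb), and all lower neighbours overlapped. Among 21819 protein-coding genes ranked by mean CPM per kb, Spns2 stood at place 296 in young WT and 298 in old KO.

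The genes also differed in how evenly the 3 young WT libraries read them. The highest library exceeded the lowest by 1.54-fold for Spns2, 4.68-fold for Mfsd2b and 7.26-fold for Sphk2. The ratio was 21.2-fold for S1pr1, 115-fold for S1pr2 and 137-fold for S1pr4. Over the 7022 genes with at least 10 CPM in young WT the median ratio was 9.57-fold, so a large spread was common in these libraries and Spns2 was read more evenly than most.

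Promoter sequence was at hand for 8 of the 9 genes, from RefSeq on GRCm38.p6. The 250 bases before the start are shown for the gene read most evenly (Spns2), the one read least evenly (S1pr4) and the other exporter (Mfsd2b); no annotated exon lies in these windows. They are at chr11:72475028-72475277, chr10:81500138-81500387 and chr12:4874360-4874609, all on the minus strand, printed 5′ to 3′. Capitals mark matches, on either strand, to CACCC (bound by Krueppel-like factors), GATAA (GATA factors), TGANTCA (AP-1) or GGGCGG (Sp1). The start that RefSeq gives for Spns2 lies 14877 bases from the 5′ end of the gene in GENCODE.
Spns2: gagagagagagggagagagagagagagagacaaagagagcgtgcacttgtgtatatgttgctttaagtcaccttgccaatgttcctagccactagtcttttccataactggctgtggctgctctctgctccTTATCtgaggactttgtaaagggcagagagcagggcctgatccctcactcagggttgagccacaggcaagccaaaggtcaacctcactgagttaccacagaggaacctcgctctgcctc
S1pr4: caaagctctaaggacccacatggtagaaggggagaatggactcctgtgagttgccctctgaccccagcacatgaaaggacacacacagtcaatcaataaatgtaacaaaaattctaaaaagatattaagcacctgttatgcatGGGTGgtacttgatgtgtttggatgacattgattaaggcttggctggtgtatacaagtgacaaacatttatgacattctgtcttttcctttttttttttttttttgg
Mfsd2b: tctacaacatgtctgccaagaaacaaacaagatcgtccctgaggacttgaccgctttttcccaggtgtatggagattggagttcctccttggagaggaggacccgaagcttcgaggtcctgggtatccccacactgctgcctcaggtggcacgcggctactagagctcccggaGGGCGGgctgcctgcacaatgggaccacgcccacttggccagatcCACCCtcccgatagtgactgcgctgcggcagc
The Spns2 window held 1 GATAA, the S1pr4 window 1 CACCC, and the Mfsd2b window 1 CACCC and 1 GGGCGG. Of 32851 promoters of this length, 52.0% held CACCC, 22.6% GATAA, 6.75% TGANTCA and 32.7% GGGCGG, so each of these matches is common. The GC content was 51.6%, 38.8% and 59.6% in the same gene order, with 2, 0 and 12 CpG pairs. The median over all promoters was 52.4% and 6 pairs.

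Among the kinases, Sphk2, the targeted gene (ENSMUSG00000057342, GRCm38 chromosome 7, 45709467 to 45718002, minus strand), was the better covered kinase in young WT libraries 1 and 3. Its level in young WT was 22.8, 3.13 and 18.6 CPM, above background by 344-, 19.4- and 97.2-fold. In old WT it was 3.91, 0.318 and 10.2 CPM and in old KO 0.892, 2.04 and 0.456 CPM. All 6 old libraries lay at or below the background count, at 0.0444 to 0.808 of it in old WT and 0.347 to 0.759 in old KO. An old WT library would have needed 35.8 to 62.8 CPM of Sphk2 to pass, more than any young WT library had. An old KO library would have needed 6.57 to 13.4 CPM, which young WT libraries 1 and 3 exceed. A loss of Sphk2 RNA in old KO relative to old WT was thus not readable, because old WT gave no level. Lower Sphk2 in old KO than in young WT cannot be told apart from a difference of age, so this gene did not check the KO label.

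Sphk2 also shares sequence with its neighbours. On the opposite strand, 539 of its 4159 exon bases (13.0%) overlap Dbp and 373 (8.97%) overlap Rpl18, a ribosomal protein gene read at 1097 to 2697 CPM in every library. Of all 50-base stretches of Sphk2, 18.3% occur in these 2 genes. The strand setting of the counting is not given in the sources used here, so reads in the overlaps cannot be assigned with certainty.

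Sphk1 (ENSMUSG00000061878), the other kinase, was above background in 1 library, young WT library 2, with 113 counts and 4.02 CPM. The other young WT libraries had 0.270 and 0.451 CPM, the old WT libraries 15.2, 3.82 and 9.86 CPM and the old KO libraries 5.65, 2.39 and 1.99 CPM. The higher CPM in old WT came from 78, 12 and 34 counts, at 0.464 to 1.65 of the background count. Of the summed counts of both kinases, Sphk2 made up 98.8% (exact 95% binomial interval 98.2 to 99.3), 43.8% (36.8 to 50.9) and 97.6% (96.1 to 98.7) in the young WT libraries. Library 2 therefore differed from the other young libraries beyond counting error, the only error these intervals cover.

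The breakdown enzymes were read weakly, apart from Sgpl1 in old KO library 1. Sgpl1 (ENSMUSG00000020097), the lyase that cleaves the lipid irreversibly, had 5, 19 and 37 counts in young WT, none of them above background. Old WT had 24, 55 and 100 counts, and old KO had 390, 53 and 34. Only old KO library 1, at 29.0 CPM and 9.47 times background, was above background.

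Sgpp1 (ENSMUSG00000021054), a phosphatase that returns the lipid to sphingosine, passed background in each young WT library, at 0.932, 1.28 and 4.38 CPM. Its 6 old libraries had higher or similar CPM, 6.06, 15.9 and 15.1 for old WT, then 2.23, 4.87 and 2.56 for old KO, yet none was above background. In counts, these were 69, 36 and 136 in young WT against 31, 50 and 52 in old WT. For Sgpp1 and Sgpl1 the CPM ranges of old WT lay wholly above those of young WT, but their old WT counts were only 0.553 to 1.64 and 0.394 to 1.65 times background.

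**Figure D2:**
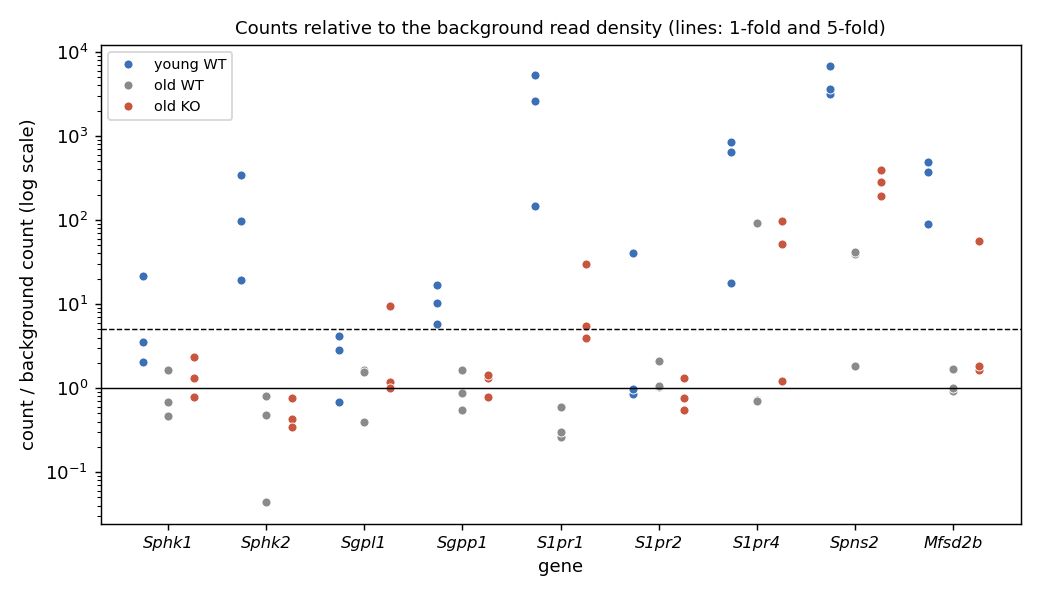
Counts divided by the background count expected over each gene's exons (log axis), with 1 point per library and colours for the 3 groups; the lines mark 1-fold and 5-fold. Sphk2 and S1pr1 lie below 1 in all 3 old WT libraries, and Spns2 is at 195-fold or more in every library of young WT and old KO.

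Of the exporters, Spns2 had the highest mean level per kb of the 9 genes in young WT and old KO, and Mfsd2b a lower one. Spns2 (ENSMUSG00000040447, chromosome 11, 72451638 to 72489904) had 437, 498 and 673 CPM in young WT (536 ± 123; SD, n = 3 here and below) and 397, 738 and 512 CPM in old KO (549 ± 174). In old WT it had 311, 12.7 and 511 CPM (278 ± 251). Old WT library 2 stood apart with 40 counts, 1.81 times background, while the other old WT libraries were at 39.3 and 41.4 times background. The young WT and old KO ranges overlapped, and old WT library 3 lay within both. On the opposite strand, 131 of the 4083 exon bases of Spns2 (3.21%) overlap Mybbp1a, which had 452 CPM in old WT library 2, where Spns2 was low, and 12.9 and 21.8 CPM in the other old WT libraries.

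Mfsd2b (ENSMUSG00000037336, chromosome 12, 4862440 to 4874359) had 30.5, 99.2 and 21.2 CPM in young WT, at 89.5 to 495 times background. Old WT had 9.19, 8.90 and 26.4 CPM, at 0.921 to 1.70 times background. Old KO had 4.24, 6.03 and 90.7 CPM, so 1 library was at a young WT level and the other 2 at 1.65 and 1.81 times background. Erythroid markers, a lineage in which Mfsd2b is known to be used, summed to 63.5 to 441 CPM in young WT, with 4 of 6 above background in at least 2 libraries. They summed to 24.2 to 27.6 CPM in old WT and 4.73 to 8.77 CPM in old KO, with none of 6 above background in at least 2 libraries. By library, young WT library 2, with the highest Mfsd2b, had the lowest erythroid sum (63.5 CPM), and library 1 the highest (441 CPM). No erythroid marker was above background in old KO library 3, where Mfsd2b had 90.7 CPM. The 6 megakaryocyte and platelet markers summed to 384 to 846, 129 to 432 and 274 to 608 CPM in the same group order. That sum was highest in library 2 in young WT (846 CPM) and in library 1 in old KO (608 CPM). The part of either lineage in the Mfsd2b level was not tested.

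S1pr1 (ENSMUSG00000045092, chromosome 3, 115710433 to 115715072), the receptor that guides exit from lymphoid organs, separated young from old WT. Young WT had 258, 17.4 and 370 CPM (215 ± 180), old WT 1.56, 1.59 and 5.51 CPM (2.89 ± 2.27), and old KO 6.02, 58.8 and 5.30 CPM (23.4 ± 30.7). In counts, old WT had 8, 5 and 19, at 0.265 to 0.599 of background, against 489 to 19087 in young WT. The young and old WT ranges did not overlap, although young WT library 2 was 21.2-fold below the highest. Detection in old WT needed 26.2 to 46.0 CPM, which young WT libraries 1 and 3 exceed and library 2 does not. Old KO library 2 was at 29.9 times background and the other 2 at 3.97 and 5.51 times. No 50-base stretch of S1pr1 occurs in another gene. Endothelial markers, from cells that also use S1pr1, summed to 11.8 to 247 CPM in young WT, 71.2 to 116 in old WT and 27.5 to 295 in old KO. None of the 6 endothelial markers was above background in an old WT library, so the old WT sum gives no endothelial level to compare. Lymphoid markers summed to 76.9 to 163, 51.8 to 79.8 and 7.24 to 14.7 CPM. The young WT lymphoid sum was nearly all Nkg7 (79.4, 162 and 76.1 CPM), and none of the 6 lymphoid markers was above background in an old WT or old KO library.

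S1pr4 (ENSMUSG00000044199), a receptor of blood and immune cells, differed widely between the libraries of each group. Young WT had 0.675 (17.8 times background), 60.5 and 92.6 CPM of it, old WT 3.32, 2.86 and 655 CPM, and old KO 61.6, 1.86 and 72.7 CPM. Its highest reading was therefore in old WT library 3, which also held 541 CPM of the granulocyte gene S100a8 against 8.99 and 7.63 CPM in the other old WT libraries. S100a8 was chosen after its values were seen, and the 6 granulocyte markers did not move as 1: in old WT library 3 Elane (60.3 CPM) and Camp (12.5 CPM) were above background too, but Ngp was lower than in the other old WT libraries (3.48 against 10.6 and 12.4 CPM), and Mpo and Ltf were not above background. Old KO library 1 had 69.3 CPM of S100a8 and 251 CPM of Ngp with 61.6 CPM of S1pr4, while old KO library 3 had 0.171 CPM of S100a8 and 64.3 CPM of Ngp with 72.7 CPM of S1pr4. The summed granulocyte markers ran from 37.9 to 172, 40.4 to 636 and 11.3 to 485 CPM in young WT, old WT and old KO, and their part in the S1pr4 level was not tested.

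S1pr2 (ENSMUSG00000043895), a receptor that restrains migration, was above background only in young WT library 2, with 349 counts and 12.4 CPM. The other young WT libraries had 0.108 and 0.354 CPM. Old WT had 32.1, 14.0 and 25.8 CPM, wholly above the young range, yet at 1.02 to 2.07 times background. Old KO had 2.15, 6.73 and 1.94 CPM, at 0.543 to 1.31 times background.

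The receptor that led the counts changed from library to library. Of the summed counts of the 3 receptors, S1pr1 made up 99.7% (exact 95% binomial interval 99.6 to 99.8), 19.3% (17.8 to 20.9) and 79.9% (79.2 to 80.6) in young WT. S1pr4 took 67.0% (65.1 to 68.8) in young WT library 2. In old KO, S1pr4 led in libraries 1 and 3 with 88.3% (86.1 to 90.3) and 90.9% (89.3 to 92.4), and S1pr1 in library 2 with 87.3% (84.7 to 89.5). In old WT library 3, S1pr4 made up 95.4% (94.5 to 96.2), and the other old WT libraries had only 189 and 58 receptor counts, none of the 3 genes above background. Library 2 of young WT was the only library with all 3 receptors above background.

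**Figure D3:**
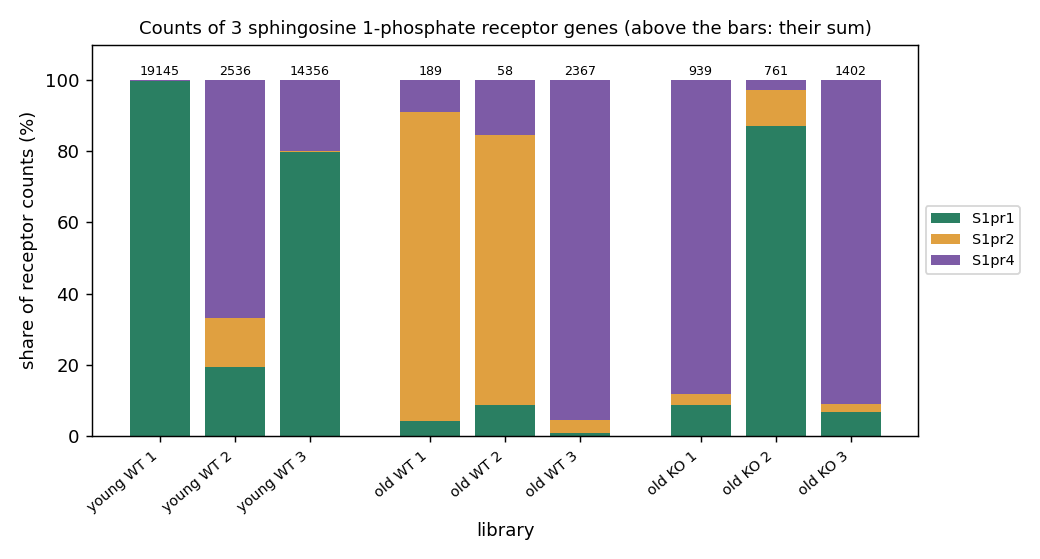
Share of the summed counts of S1pr1, S1pr2 and S1pr4 taken by each gene (percent, bars stacked to 100) in each of the 9 libraries, with the summed count above each bar. S1pr1 leads in young WT libraries 1 and 3 and old KO library 2, and S1pr4 leads in young WT library 2, old WT library 3 and old KO libraries 1 and 3.

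The first comparison asks how old WT stem cells differ from young ones. With TMM factors, 4 of the 9 genes were lower in old WT: S1pr1, Spns2, Sphk2 and Mfsd2b (quasi-likelihood test of edgeR, p adjusted by Benjamini-Hochberg under 0.05), and none was higher. Over all genes tested, 18.4% were called lower and 18.6% higher. The median fold change of the 9 genes was -2.15 on the log2 scale, beside 1.37 over all genes tested. Shares and medians over all genes, here and below, take in genes not above background in young WT. Of these 9 genes, 6 were above it in all 3 young WT libraries. Values over genes above background in young WT alone were not computed. S1pr1 had a log2 fold change of -10.54 ± 1.83 (SE; adjusted p = 0.0053, edgeR), Spns2 -5.15 ± 1.23 (adjusted p = 0.0109), Sphk2 -6.08 ± 1.62 (adjusted p = 0.0155) and Mfsd2b -5.75 ± 1.64 (adjusted p = 0.0196). Of these 4 genes only Spns2 was above background in an old WT library. No young WT library reached the 35.8 to 62.8 CPM of Sphk2 that an old WT library needed. For Mfsd2b old WT needed 44.3 to 77.7 CPM, which 1 young WT library exceeds. The other 5 genes lay between -2.15 (S1pr4) and 0.79 (Sgpl1), with adjusted p from 0.190 to 0.559.

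These sizes depend on the scaling. Fold changes in this comparison had a median shift of -3.90 (log2, all genes) when TMM factors replaced total counts. With total counts only S1pr1 stayed lower (-6.22 ± 1.60; adjusted p = 0.0027, edgeR), where 3.48% of genes were called lower. Sgpl1 (4.72 ± 1.47; adjusted p = 0.00886) and Sgpp1 (2.49 ± 1.03; adjusted p = 0.0389) were then higher, as were 68.4% of all genes, and Spns2, Sphk2 and Mfsd2b moved to -0.95, -1.63 and -1.76 without a call. Neither Sgpl1 nor Sgpp1 was above background in an old WT library. The S1pr1 call held in 17 alternatives (-11.21 to -6.22) and was lost in 1, the fit with background subtracted (adjusted p = 0.142, edgeR), in which all 3 old WT libraries were at 0 and the fold change has no fixed size. By contrast, Sphk2 and Mfsd2b lost theirs when old WT library 1, 2 or 3 was left out (Sphk2 -6.22, -5.66 and -6.90; Mfsd2b -5.66, -5.72 and -6.16). Without old WT library 3 the S1pr4 fold change went from -2.15 to -7.66 and was still not called.

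Counted by ranges of CPM, S1pr1 was the only gene of the 9 wholly lower in old WT, and Sgpl1, Sgpp1 and S1pr2 were wholly higher. The shares over all genes tested were 5.87% and 65.0%. An exact permutation test of 3 against 3 libraries cannot go below p = 0.1, which each of these 4 genes reached.

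The second comparison asks what the Sphk2 KO changes in old stem cells. By edgeR with TMM factors, none of the 9 genes was called, and 3 had an unadjusted p under 0.05: S1pr1 (4.79 ± 1.43; adjusted p = 0.166), Spns2 (3.08 ± 1.12; adjusted p = 0.250) and Mfsd2b (3.68 ± 1.49; adjusted p = 0.313). Over all genes 0.457% were called higher and 0% lower. DESeq2 called these 3 genes higher in old KO (S1pr1 4.46, adjusted p = 0.00188; Spns2 2.68, adjusted p = 0.0283; Mfsd2b 3.19, adjusted p = 0.0327), as it did 24.3% of the 8555 genes for which it gave an adjusted p. With total counts the values were 3.02, 0.98 and 1.18, again without a call, where 0.00614% of genes were called higher and 0% lower. Sphk2 itself was at -0.12 ± 1.31 with TMM and -2.09 ± 1.23 with total counts.

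No gene of the 9 had an old KO range wholly above old WT, beside 1.91% of all genes. Sgpp1 and S1pr2 were wholly lower, beside 48.8% of all genes, and neither was above background in any of these 6 libraries. Spns2 overlapped because old WT library 3 (511 CPM) lay within the old KO range, and S1pr1 because old WT library 3 (5.51 CPM) lay above old KO library 3 (5.30 CPM). For Mfsd2b only old KO library 3 exceeded old WT, and without it the TMM fold change was 0.27.

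**Figure D4:**
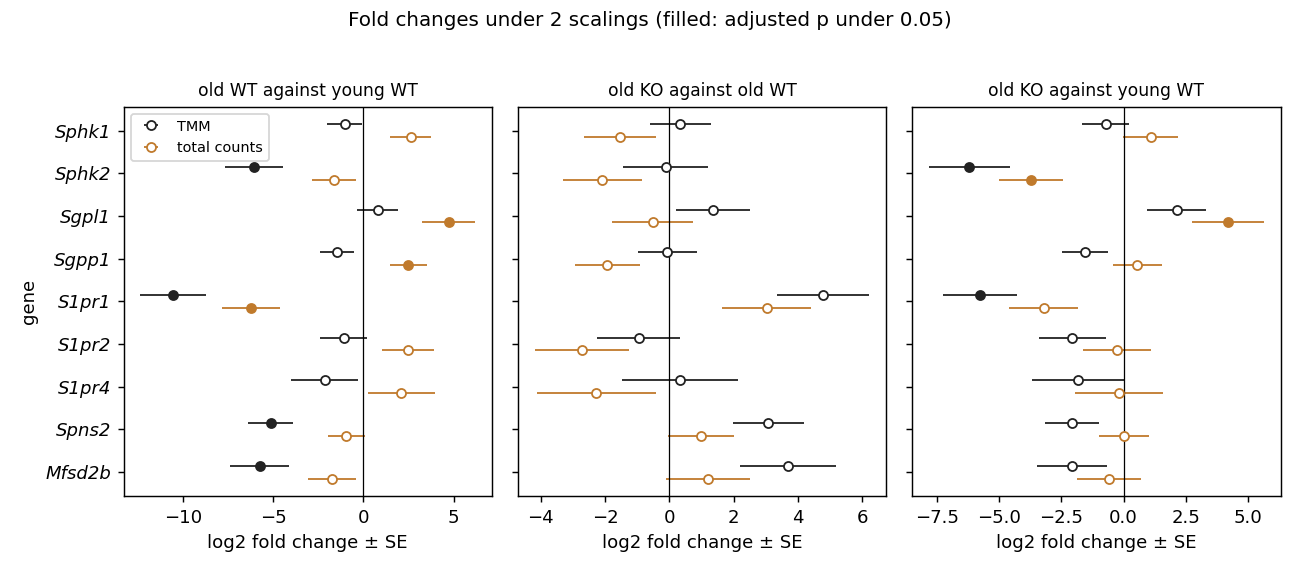
Log2 fold change ± SE of the 9 genes in each comparison (edgeR, 3 libraries a group), with TMM factors in black and total counts in orange; filled points have an adjusted p under 0.05. S1pr1 is filled under both scalings in old WT against young WT, and no point is filled in old KO against old WT.

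The third comparison sets old KO against young WT and shares its libraries with the other 2. S1pr1 (-5.76 ± 1.49; adjusted p = 0.0349, edgeR) and Sphk2 (-6.20 ± 1.63; adjusted p = 0.0356) were lower in old KO, 2 of 9, beside 5.84% of all genes called lower and 6.92% called higher. Spns2 was at -2.07 ± 1.07 (adjusted p = 0.151), and with total counts at 0.03 ± 1.01 (adjusted p = 0.980). With total counts Sphk2 kept its call (-3.72 ± 1.30; adjusted p = 0.0256), S1pr1 was at -3.20 ± 1.38 (adjusted p = 0.0577) and Sgpl1 was higher (4.20 ± 1.44; adjusted p = 0.0236), beside 3.93% of genes lower and 52.7% higher. Sphk2 was also the only gene of the 9 whose CPM was wholly lower, and Sgpl1 the only one wholly higher, beside 4.06% and 53.5% of all genes. In young WT and old KO, Sgpl1 was above background only in old KO library 1. Old KO libraries 2 and 3 were at 1.18 and 0.998 times background. Sphk2 was not called without any single old WT or old KO library (-6.80 to -5.43 over the libraries left out), nor S1pr1 without young WT library 1, old WT library 1 or 3, or any old KO library (-7.40 to -5.37 over the libraries left out).

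Of 19 further genes around the lipid (other receptors, phosphatases, ceramidases, ceramide synthases, the enzyme after the lyase and the plasma carrier), those above background in 2 or more libraries of a group numbered 8 for young WT, 0 for old WT and 2 for old KO. In old WT against young WT, 5 were called lower and 3 higher by edgeR with TMM, where all genes tested had 18.4% lower and 18.6% higher, so these counts lie near the general share. The median was -0.54, beside 1.37 over all genes tested. The lower ones were the ceramide synthases Cers2 (-7.81 ± 1.84; 199 ± 108 against 12.1 ± 3.53 CPM), Cers4 (-5.61 ± 1.35) and Cers5 (-6.12 ± 1.99), the lipid phosphatase Plpp2 (-8.65 ± 2.46) and the acid ceramidase Asah1 (-5.62 ± 2.08). The higher ones were the phosphatase Sgpp2 (2.98 ± 0.87), which was above background in no library, and the ceramidases Acer1 (5.72 ± 1.84), above background in 1 old WT and 1 old KO library, and Acer2 (2.74 ± 0.95), above background in none. None of the 5 lower genes was above background in an old WT library. In young WT, Cers2 and Cers4 were above it in 3 libraries, Cers5 and Plpp2 in 2 and Asah1 in 1. Asah1 and Acer2 were named after their values were seen. With total counts the split was 1 lower (Cers2) and 11 higher, beside 3.48% and 68.4% of all genes. Between old KO and old WT none of the 19 was called, beside 0.457% of all genes higher and 0% lower. Unadjusted p by edgeR was under 0.05 for 3 of the 19. Against young WT only Cers4 was lower in old KO (-5.47), beside 5.84% of all genes lower and 6.92% higher. With total counts 1 was lower and 9 higher in that comparison, beside 3.93% and 52.7% of all genes.

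A second list held 16 genes that control S1PR1 or act below the receptors, of which 15, 3 and 10 were above background in at least 2 libraries of young WT, old WT and old KO. In old WT against young WT, 12 were lower and none higher with TMM (median -5.90, beside 1.37 over all genes tested), where 18.4% of all genes were lower and 18.6% higher. With total counts 5 were lower and 2 higher, beside 3.48% and 68.4% of all genes, and Gnai2, a G protein called lower with TMM (-3.83), was at 0.030 (named after its value was seen). The transcription factor Klf2, which drives S1pr1 in lymphocytes, had 1676 ± 134 CPM (young WT), 235 ± 76.9 (old WT) and 1785 ± 431 (old KO), and was above background in all 9 libraries. It was lower in old WT under both scalings (-6.81 with TMM and -2.83 with total counts). The receptor kinase Grk2 was at 317 ± 50.3, 16.9 ± 2.19 and 17.4 ± 7.84 CPM (-8.20 ± 1.31 in old WT against young WT). The small GTPases Rac1 (-8.39 ± 1.47) and Rhoa (-6.39 ± 1.28), the G protein Gna12 (-7.52 ± 1.44) and the arrestin Arrb2 (-7.77 ± 1.75) were lower with TMM as well. With total counts Grk2, Rac1, Gna12 and Arrb2 kept their calls, and Rhoa did not (-2.21; adjusted p = 0.0657, edgeR). None of Grk2, Rac1, Gna12, Arrb2 and Rhoa was above background in an old WT library, so their old WT level was not readable.

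Klf2 was the only gene of the second list called between old KO and old WT (4.75 ± 0.89 higher in old KO; adjusted p = 0.0338, edgeR with TMM), beside 0.457% of all genes. With total counts it was at 2.92 (adjusted p = 0.148), and the call was kept in 2 of the 9 fits that left out 1 library. S1pr1 in the same libraries was at 4.79 without a call. In old KO against young WT, 5 of the 16 were lower: Grk2 (-6.16), Gna12 (-7.16), Rac1 (-4.32), Arrb2 (-5.20) and Arrb1 (-5.14), the last named after its value was seen, beside 5.84% of all genes lower, and Klf2 was at -2.06 (adjusted p = 0.0765). With total counts 3 of the 16 were lower and 1 higher, beside 3.93% and 52.7% of all genes. Rac1 and Arrb1 then lost their calls (adjusted p = 0.0666 and 0.0630, edgeR). Over the 9 fits that left out 1 library, Grk2 and Gna12 kept their calls in 6, Arrb1 and Arrb2 in 2, Rac1 in 1.

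For each of the 6 genes above background throughout young WT, the protein-coding genes with the most similar pattern over the 9 libraries were found among 12691 genes, by the root mean square difference of centred log2(CPM + 1). Spns2 was most like Arpc2 (0.442), Prdx6 (0.477) and Cox7a2l (0.613), against a median of 2.50 over all these genes. Arpc2 had 366, 19.4 and 640 CPM in old WT, with the same low library 2 as Spns2. Mfsd2b was most like Zfr (0.380), Nsfl1c (0.402) and Kpnb1 (0.420), each of which had its highest old KO reading in library 3. Among the genes close to Sphk2 were Triap1 (0.514) and Slc35e2 (0.535), and Sgpp1 was most like Cdcp1 (0.417), Dpysl2 (0.418) and Cdh12 (0.421). S1pr1 had looser neighbours in Snx5 (0.955), Uck1 (1.05) and F8a (1.12), and S1pr4 the loosest in Supt5 (1.51), Tpi1 (1.66) and Trip6 (1.75). The likeness takes in depth and background, which all genes of a library share.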

How the data were processed

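The values deposited by the authors are raw counts, 1 table for all 9 libraries. Tools listed in the submitters' processing notes are HTSeq 0.10.0, STAR 2.6.1d, edgeR 3.24.3 and Trim Galore 0.6.2, with the mm10 build; annotation and strand setting: not given in the sources used here. Per the labels' protocols, libraries were amplified for 13 cycles and read as 150 bp pairs. The 5 lines naming no gene (outside genes, ambiguous and the like; shares above, ambiguous 0.619% to 5.48%) stayed out of library sizes and tests.

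Coordinates and exon lengths came from GENCODE M21 (GRCm38). CPM divides counts by the library's total in genes. The test was edgeR 4.0.16 (R 4.3.3), a quasi-likelihood F test on all 9 libraries with 1 mean per group. It used TMM factors, filterByExpr and Benjamini-Hochberg adjustment over 32582 genes at 0.05. The simulated data on which it was tried had no background difference between groups, so that trial does not cover the background differences seen here. The olfactory background left out the densest 1% of genes. Alternatives were DESeq2 1.42.0, other scaling factors, filters, the 6 compared libraries, a replicate block, subtracted background and leaving out each library.

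The 9 genes and both lists were chosen with earlier results of these data known. Named were all 9 genes, up to 6 called genes of each list by adjusted p, and 3 genes most like each gene above background in young WT (at least 10 CPM in a group); 1 gene given by this rule is not reported here. Libraries of a group differed by more than counting noise.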

Additional observations from a re-analysis of the deposited data

How the results depend on the processing

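In old WT against young WT, 4 genes were called. DESeq2, RLE, upper quartile, no filter, the stricter filter, the 6 compared libraries and the replicate block also called 4 lower, total counts called 3 (1 lower), background subtraction 0, and leaving out 1 library 2 to 4. In old KO against old WT the count was 0 by edgeR under each alternative and 3 by DESeq2. In old KO against young WT it was 2, with 1 from the 6 compared libraries, 0 with the replicate block, 0 after background subtraction, 3 with the stricter filter and 0 to 2 with 1 library left out. Spns2 in old WT against young WT kept its call in 16 of 18 alternatives, and lost it with total counts (-0.95) and background subtraction (-0.44).

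Replicate numbers did not pair the libraries: correlations of same-numbered deviations ran from -0.026 to 0.035, and 4 of 9 such pairs were the best match. Over all genes, the main calls of 12058, 149 and 4158 became 7076, 2 and 0 with the replicate block, 23414, 2 and 18438 with total counts, and 12, 14 and 4 after background subtraction. DESeq2 called 2227 in old KO against old WT and 8327 in old KO against young WT. In old KO against old WT the 6 compared libraries gave 0, RLE and upper quartile factors 2 each and no filter 271, and in old KO against young WT the stricter filter gave 8294. Leaving out old WT library 1, 2 or 3 gave 4287, 4633 and 3696 in the first comparison. In the second, leaving out any young or old WT library gave 0 or 1 and old KO library 3 gave 3, and in the third, leaving out any old KO library gave 0. The cause of these differences was not tested.

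Among the 9 genes, signs turned only in fold changes that were not called with TMM factors. In old WT against young WT, total counts gave Sphk1 2.62, Sgpp1 2.49, S1pr2 2.48 and S1pr4 2.10. The stricter filter gave Sphk1 0.75, Sgpp1 0.11 and S1pr2 0.75. Background subtraction gave Sgpp1 0.56 and S1pr4 2.82, and the replicate block S1pr2 0.63. Without young WT library 2, Sphk1 was at 0.47 and S1pr2 at 2.52, the highest of ranges that began at -1.81 and -1.76.

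In old KO against old WT, RLE factors gave Sphk1 -0.031 and S1pr4 -0.094, and DESeq2 S1pr4 -0.10. Total counts gave Sphk1 -1.53, Sgpl1 -0.52 and S1pr4 -2.28, background subtraction S1pr4 -2.25, and the replicate block Sphk2 0.73. With 1 library left out, Sphk1 ran from -0.12 to 1.06, Sphk2 from -0.61 to 0.64, Sgpl1 from -0.39 to 1.85, Sgpp1 from -0.35 to 0.43 and S1pr4 from -0.54 to 5.80 (the last without old WT library 3).

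In old KO against young WT, total counts gave Sphk1 1.09, Sgpp1 0.55 and Spns2 0.034, and the stricter filter Sphk1 1.02. Background subtraction gave S1pr4 0.57, Spns2 0.67 and Mfsd2b 0.061. With 1 library left out, Sphk1 ran from -1.27 to 0.84 and S1pr2 from -2.69 to 1.60, both highest without young WT library 2.

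Background subtraction gave no value for Sphk1, Sgpl1 and S1pr2, which were not above background in enough libraries to be fitted. Where it left a group at 0 counts the fitted fold changes have no fixed size, and no call was made: S1pr1 against old WT had adjusted p = 0.142 (young WT) and 0.144 (old KO), and Sphk2 in young WT 0.143 (old WT) and 0.345 (old KO), by edgeR. DESeq2 gave no adjusted p for S1pr2, nor for Sphk1 in old KO against old WT. The detection limits, which rest on depth and background density together, were highest in old WT: Mfsd2b needed 44.3 to 77.7 CPM there, which 1 young WT library exceeds.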
